A study of Mus musculus with 8 samples.

Results

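The 10 genes described here encode amino acid transporters of the proximal tubule (PT), and they were chosen by name: *Slc3a1*, *Slc3a2*, *Slc7a7*, *Slc7a8*, *Slc7a9*, *Slc7a12*, *Slc7a13*, *Slc6a18*, *Slc6a19* and *Slc6a20b*. All 10 were among the 32285 genes of the single-cell table. Their levels were followed across the classes of embryonic kidney cells and in kidneys that had lost *Trim28* and in their controls. The kidneys came from 4 male mouse embryos at E17.5 by the sample labels, while the text of the study gives a later day. Mice 1 and 2 carry the tags named ko (*Trim28* Δ/Δ) and mice 3 and 4 the tags named wt (*Trim28* f/f). Both groups share the floxed *Trim28* allele, and in the ko kidneys it was deleted by a Cre that the *Six2* promoter drives in nephron progenitor cells (NPC), so that collecting duct, stroma, vessels and blood lie outside the lineage in which the Cre acts. *Trim28* encodes a transcriptional co-repressor. The cells of the 4 mice were pooled in 1 suspension and told apart by cell multiplexing oligonucleotides, and 7363 cells were assigned to a mouse. The same suspension held 1103 to 1181 cells on each of 4 further tags, which the tag list does not name and which were not used here. Values below are unique molecular identifiers (UMIs) of a gene, scaled to the same total for every class and mouse (CPM). They come from the 3′ end of transcripts and do not scale with transcript length, but capture differs from gene to gene, so levels are compared for 1 gene between cells and not between genes.

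The proximal tubule takes back nearly all filtered amino acids. At the brush border, light chains of the SLC7 family work as heterodimers with a heavy chain of the SLC3 family that brings them to the membrane, and carriers of the SLC6 family cotransport neutral amino acids with sodium and depend on partner membrane proteins such as collectrin. At the basolateral side, other SLC7 light chains pair with *Slc3a2* and release amino acids to the blood. *Slc3a1* (rBAT) and *Slc7a9* (b0,+AT) form the luminal exchanger of cystine and basic amino acids, which is the system lost in cystinuria. *Slc7a13* (AGT1) also pairs with rBAT and carries cystine and acidic amino acids. *Slc7a12* (Asc-2) is a further light chain of the family. *Slc3a2* (4F2hc) is the heavy chain of *Slc7a7* (y+LAT1), the basic amino acid exporter lost in lysinuric protein intolerance, and of *Slc7a8* (LAT2), an exchanger of neutral amino acids. *Slc6a19* (B0AT1) is the main luminal carrier of neutral amino acids and the gene of Hartnup disorder, *Slc6a18* is its close relative, and *Slc6a20b* belongs to the subfamily of imino acid carriers. *Slc6a20b* has a close paralog, *Slc6a20a*, with which it may share reads, so its values are uncertain to that extent.

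The genes lie on several chromosomes in the GENCODE annotation of GRCm38. *Slc3a1* lies on chromosome 17 from 85028376 to 85064236 (plus strand) and its partner *Slc7a9* on chromosome 7 from 35448796 to 35466036 (plus strand). *Slc6a18* (chromosome 13, 73661752 to 73678023) and *Slc6a19* (chromosome 13, 73679745 to 73704865) are neighbours on the minus strand. *Slc7a7* (chromosome 14, 54369442 to 54417780) and *Slc7a8* (chromosome 14, 54722209 to 54781946) share a chromosome and the minus strand. *Slc3a2* lies on chromosome 19 from 8706882 to 8723369, *Slc7a12* on chromosome 3 from 14480697 to 14505830, *Slc7a13* on chromosome 4 from 19818725 to 19842218 and *Slc6a20b* on chromosome 9 from 123590800 to 123632565.

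Promoters are shown for the cystine exchanger, because its heavy and light chain were both highest in convoluted PT-like cells, and for *Slc7a8*, which held a match too. The RefSeq promoter table (GRCm38.p6) held 7 of the 10 genes. The 250 bases before each listed start were searched on both strands for CAAAGTCCA, a core of the site bound by HNF4, and for the centre of the palindromic HNF1 site (10 bases, 1 of them free). Both factors are regulators of proximal tubule genes. The HNF4 core was found in 0.384% and the HNF1 centre in 0.387% of all 32851 starts in the table. The window of *Slc3a1*, chr17:85028097-85028346 on the plus strand, held the HNF4 core from base 39 to base 31 before the start. It is printed 5′ to 3′ with the match in capitals, and a match is a description of the letters and not a site shown to be bound.
*Slc3a1*: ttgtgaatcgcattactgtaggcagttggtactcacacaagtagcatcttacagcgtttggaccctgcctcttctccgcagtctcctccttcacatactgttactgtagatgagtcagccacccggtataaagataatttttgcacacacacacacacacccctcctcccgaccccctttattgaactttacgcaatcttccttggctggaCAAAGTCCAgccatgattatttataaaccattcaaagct

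The HNF1 centre was found before the starts of *Slc7a9* (chr7:35449002-35449031, plus strand) and *Slc7a8* (chr14:54782030-54782059, minus strand). The match lies from base 80 to base 71 before the first of the 2 listed starts of *Slc7a9* and from base 163 to base 154 before the start of *Slc7a8*. In the GENCODE annotation *Slc7a9* starts at 35448796, so there its match lies inside the gene. Each match is given in capitals, with 10 bases on both sides, as read along the gene's strand.
*Slc7a9*: aggtgggtgtTTAATAATTAcctctgttga
*Slc7a8*: tagggggtacTAATAATTAAatagaagaag

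Neither motif was found before the listed starts of *Slc3a2*, *Slc7a7*, *Slc6a19* and *Slc6a20b*, which says only that these letters are not in these windows. The windows of *Slc3a2* and *Slc6a19* and some of *Slc7a7* lie inside the genes as GENCODE places them.

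Cells were clustered with the 10 genes left out of the variable genes, and clusters were named only from marker genes. A cluster of 604 cells was named convoluted PT-like, with all 7 markers of that segment passing, among them *Slc34a1*, the phosphate carrier of the early segment, at 1110.4 CPM. A cluster of 391 cells was named straight PT-like from 4 of 7 markers. *Aadat* reached 871.0 CPM there against 298.8 CPM in convoluted PT-like cells, *Slc22a13* 112.0 against 85.4 CPM and *Atp11a* 71.5 against 66.7 CPM, whereas *Slc27a2* was lower there, at 210.2 against 315.5 CPM. *Cyp7b1*, *Slc22a7* and *Serpina1f*, which mark the mature straight segment, were at 2.5 CPM or less in these cells. *Slc22a7* was also lower there than in convoluted PT-like cells, at 0.6 against 2.3 CPM, so the name of this cluster rests mainly on *Aadat*. Together these clusters make up the 995 PT-like cells. Another 773 cells were named early PT-like from *Osr2*, *Cdh6*, *Cthrc1* and *Hnf4a*. *Osr2* was at 349.4 CPM there against 55.6 CPM in convoluted and 61.9 CPM in straight PT-like cells, and *Cthrc1* at 164.4 against 18.4 and 43.7 CPM. *Cdh6* was at 432.0 against 127.8 and 332.5 CPM, whereas *Hnf4a* was lower there, at 92.8 against 144.7 and 108.0 CPM. The further marker *Cdh2* did not pass, at 22.5 CPM against 92.5 CPM in NPC-like cells. PT-like cells summed to 7732419, 8832079, 4082496 and 5357249 UMIs in mice 1 to 4. Mouse 3 stood apart, since it gave only 18 of the straight PT-like cells, against 125, 173 and 75 in mice 1, 2 and 4, and nearly all cells of a loop of Henle-like and of a collecting duct-like cluster. The low number of straight cells depended on the tag assignment. With k-means tag assignment mouse 3 gave 85 straight PT-like cells, against 55, 69 and 23 in mice 1, 2 and 4. Changes between genotypes that rest on mouse 3 are also given without it.

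All 4 mice share the RNA that was free in the suspension, to which the cells of the 4 further tags could also add. It was measured in 353040 barcodes with 10 to 100 UMIs. This RNA held each of the 10 genes, from 2.73 CPM for *Slc6a19* to 111 CPM for *Slc3a2* and 87.0 CPM for *Slc6a18*. Convoluted PT markers, which other cells should lack, reached a median of 10.4% to 30.1% of their level in free RNA in the classes and clusters outside the PT, except an unnamed cluster of 59 cells at 141%. Levels of the 10 genes within that reach are background and are not read as expression.

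*Slc3a1*, the heavy chain of the cystine exchanger, reached 198, 181, 145 and 159 CPM in convoluted PT-like cells of mice 1 to 4. It reached 76.9, 72.7, 124 and 56.1 CPM in straight PT-like cells. Levels in the segments did not overlap over the mice, though those of mouse 3 were close. In early PT-like cells it was at 12.2 CPM ± 4.14 (SD, n = 4), and its mean in podocyte-like, intercalated-like and endothelial-like cells was 6.04 to 8.87 CPM, with ranges over the mice that overlapped those of the early PT-like cells. In no class outside the PT did it pass 2 times the highest share of free RNA that a convoluted marker reached there.

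*Slc7a9*, its light chain, reached 61.3, 60.7, 60.6 and 46.4 CPM in convoluted PT-like cells. It reached 31.8, 30.4, 22.8 and 32.0 CPM in straight PT-like cells, below the convoluted cells of every mouse. Unlike *Slc3a1*, it stood at 22.6 CPM ± 3.26 (SD, n = 4) in early PT-like cells, overlapping its range in straight cells. Over the UMIs of the 4 mice summed, *Slc3a1* went from 174 CPM in convoluted to 14.1 CPM in early PT-like cells, and *Slc7a9* from 58.0 to 21.9 CPM. Across 20 clusters or classes the levels of the pair had a Pearson r of 0.884 on the log2(CPM + 1) scale, which is a description over classes that share the same free RNA.

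**Figure D1:**
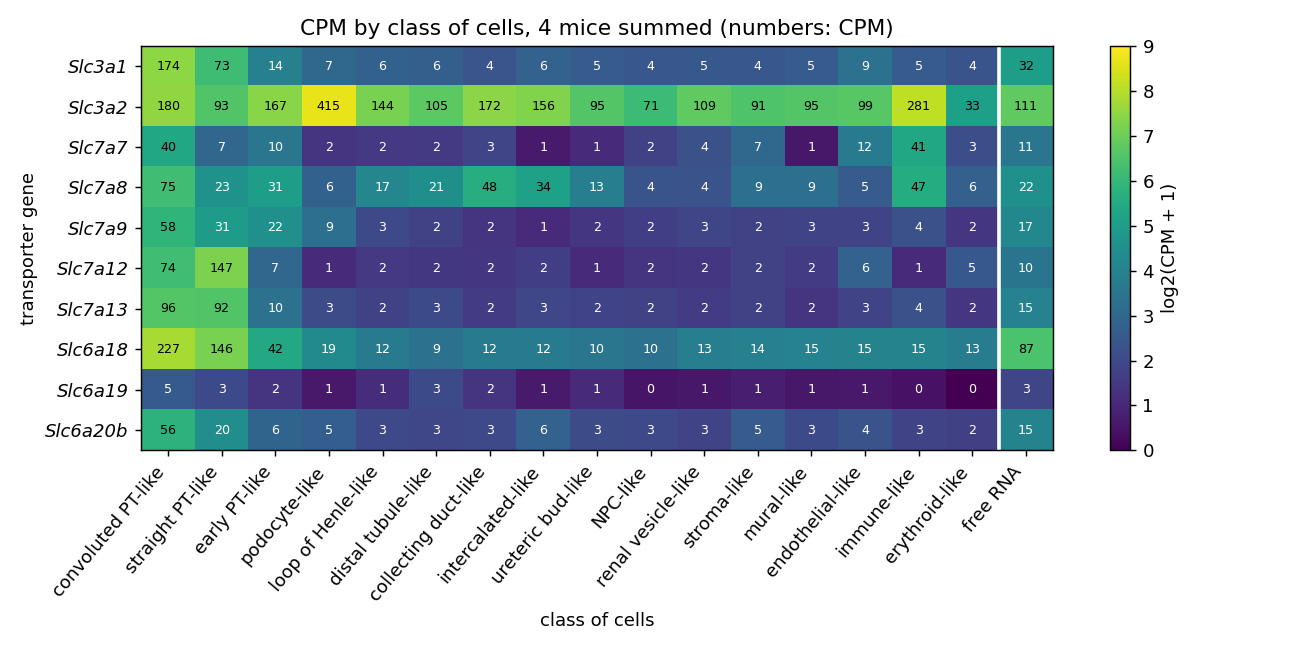
Level of each transporter gene in each class of cells and in free RNA, as CPM over the UMIs of 4 mice summed. The colour is log2(CPM + 1) and the printed number is the CPM, and *Slc3a1* goes from 174 CPM in convoluted PT-like cells to 14.1 CPM in early PT-like cells, while *Slc3a2* is above 60 CPM in every class but the erythroid-like.

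*Slc7a13*, the other luminal light chain that pairs with rBAT, was at 119, 84.9, 55.6 and 118 CPM in convoluted PT-like cells. In straight PT-like cells it was at 72.7, 71.4, 114 and 156 CPM. The segments overlapped over the mice, with the convoluted level higher in both ko mice and the straight level higher in both wt mice. Outside the PT its highest mean over the mice in a named class was 3.81 CPM, in podocyte-like cells. *Slc7a12* was the only one of the 10 genes that was higher in the straight segment of every mouse. It was at 161, 116, 226 and 171 CPM in straight PT-like cells and at 102, 72.5, 33.6 and 78.9 CPM in convoluted PT-like cells. It was among the 10 leading genes of the straight cluster although it was left out of the clustering. *Slc7a12* was not among them in the smaller straight clusters under log normalization (145 cells), k-means tag assignment (232 cells) and tags scaled per tag (147 cells). In early PT-like cells it was at 6.93 CPM ± 0.99 (SD, n = 4).

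The basolateral light chains had a wider reach. *Slc7a7* was at 40.1, 39.6, 34.2 and 46.7 CPM in convoluted PT-like cells and at 6.06, 8.79, 8.28 and 3.67 CPM in straight PT-like cells. The convoluted level was above the straight level by 1.92 to 3.35 on the log2(CPM + 1) scale in the 4 mice, the largest median difference between the segments among the 10 genes. It also reached 34.6, 70.7, 31.9 and 36.1 CPM in immune-like cells, where macrophages are known to use it, overlapping its range in convoluted PT-like cells. Endothelial-like cells held 12.8, 10.5, 14.3 and 9.82 CPM, at 116% of the free RNA against a highest 37.9% for a convoluted marker. In stroma-like cells it was at 67.7% against 21.9%, and these 3 classes (immune, endothelial and stroma-like) were the ones outside the PT where it passed 2 times the highest share of a convoluted marker.

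*Slc7a8* was at 70.5, 67.5, 84.5 and 84.7 CPM in convoluted and 19.3, 23.2, 41.4 and 25.1 CPM in straight PT-like cells. It was also found outside the PT. Collecting duct-like cells held 61.6, 61.5, 31.3 and 51.1 CPM, with the low value in mouse 3, of whose 178 collecting duct-like cells 175 lay in a cluster that held 1 cell of the other mice. Immune-like cells held 45.4, 58.3, 41.9 and 44.7 CPM and intercalated-like cells 40.2, 50.9, 30.8 and 21.8 CPM. Early PT-like, straight PT-like and distal tubule-like cells followed with means of 29.0, 27.3 and 21.9 CPM and overlapping ranges. In 5 classes outside the PT (collecting duct, intercalated, distal tubule, loop of Henle and ureteric bud-like) it passed 2 times the highest share of free RNA of a convoluted marker. Immune-like cells, at 210% against 156%, did not.

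*Slc3a2*, which serves as heavy chain for light chains of many cell types, was counted in every class, but in erythroid-like cells it stood at 29.8% of its level in free RNA, just above the 25.2% that the highest convoluted marker reached there. Its means ran from 30.6 CPM in erythroid-like cells to 299 CPM in podocyte-like cells, and each overlapped with its neighbour in that order except erythroid-like cells and an unnamed cluster just above them. In mouse 3 it was higher than in the other mice in 19 of 20 clusters or classes. Podocyte-like cells held 248, 175, 630 and 143 CPM in mice 1 to 4, and immune-like cells 189, 205, 408 and 189 CPM. Without mouse 3, these levels lie between 143 and 248 CPM. *Slc3a2* is known as a target of the amino acid stress response, so 10 genes of that response were looked at, chosen after the values were seen. Their summed level was highest in mouse 3 in 15 of 20 clusters or classes, and in 18 of 20 without *Phgdh*, an enzyme of serine synthesis. Over all cells it was 453 and 457 CPM in the ko mice, 586 CPM in mouse 3 and 456 CPM in mouse 4, with 8 of 10 genes highest in mouse 3 and none at 0, and *Ddit3*, a transcription factor of that response, stood at 86.2 CPM there against 16.8 to 20.9 CPM elsewhere. In PT-like cells the sum was 733, 720, 643 and 785 CPM in mice 1 to 4, most of it from *Phgdh*, at 594, 551, 439 and 631 CPM. Without that gene, left out after the values were seen, the other 9 genes summed to 139, 169, 204 and 154 CPM, highest in mouse 3, as were *Atf4*, *Ddit3* and *Ppp1r15a* of the 10 genes. The part of this response in the *Slc3a2* level was not tested.

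**Figure D2:**
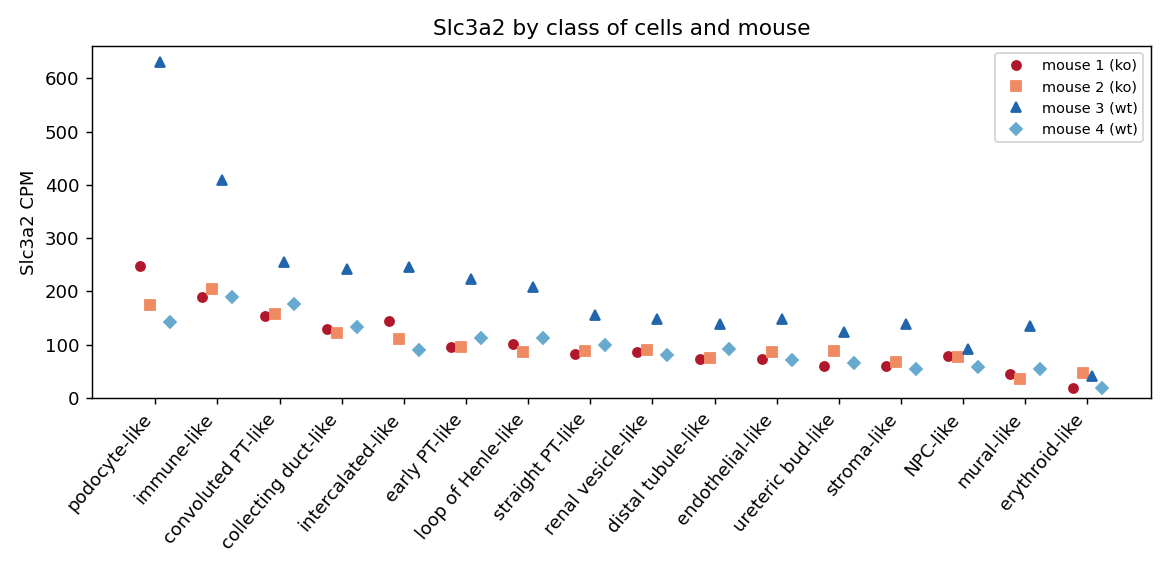
CPM of *Slc3a2* (linear axis from 0) in 16 named classes of cells, ordered by the mean over the mice, with 1 point for each mouse. Mouse 3 has the highest point in each class but the erythroid-like, up to 630 CPM in podocyte-like cells.

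*Slc6a18*, the luminal relative of B0AT1, was at 232, 263, 201 and 197 CPM in convoluted PT-like cells and at 150, 150, 192 and 123 CPM in straight PT-like cells, a step that mouse 3 hardly showed. Early PT-like cells held 39.6 CPM ± 4.74 (SD, n = 4), between the straight PT-like cells and all other named classes, where no mean passed 18.8 CPM. A UMI of *Slc6a18* was found in 91.2% of PT-like cells (median 22670 UMIs per cell) and in 67.2% after each cell was thinned to 6800 UMIs. In endothelial-like cells (median 12444 UMIs), which should lack the carrier, the same shares were 17.4% and 6.94%. *Slc6a20b* was at 66.0, 57.1, 39.2 and 55.1 CPM in convoluted PT-like cells and at 23.9, 18.1, 47.6 and 13.1 CPM in straight PT-like cells, with the order reversed in mouse 3 alone, where 18 straight cells gave 23 UMIs.

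*Slc6a19*, the main neutral amino acid carrier of the adult brush border, was the least counted of the 10 genes. Its PT-like cells held 111 UMIs in all, at 6.47, 3.74, 2.69 and 3.17 CPM in mice 1 to 4. Convoluted PT-like cells held 7.27, 4.92, 2.78 and 3.48 CPM and distal tubule-like cells 3.99, 2.60, 2.82 and 3.22 CPM, with overlapping ranges, so a difference between these classes was not detectable at this depth. After thinning to 6800 UMIs, 2.21% of PT-like cells and 0.36% of endothelial-like cells (median 12444 UMIs before thinning) held a UMI of *Slc6a19*, against 9.65% and 0.89% without thinning. Distal tubule-like cells (median 18765 UMIs) held it at 2.11% after and 6.33% before thinning, close to the PT-like cells. In 4 classes outside the PT (distal tubule, collecting duct, loop of Henle and ureteric bud-like, with 6 to 18 UMIs each) it passed 2 times the highest share of free RNA of a convoluted marker.

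The heavy and light chains were counted in the same cells. In convoluted PT-like cells, 69.5%, 75.9%, 60.6% and 58.6% of cells of mice 1 to 4 held UMIs of both *Slc3a1* and *Slc7a9*. Of the cells with *Slc7a9*, 2.99%, 4.35%, 13.0% and 8.45% had no UMI of *Slc3a1*. In straight PT-like cells of mice 1, 2 and 4, cells with *Slc7a9* but no *Slc3a1* made up 39.6%, 37.3% and 30.3% of those with *Slc7a9*. In mouse 3 this was 0 of 9 cells, which allows a share of up to 33.3%. The straight cells were less deep, with a median of 18592 to 20671 UMIs against 22529 to 27548 in the convoluted cells, and held less *Slc3a1*, so a missed UMI and a missing partner cannot be told apart.

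By likeness of levels over 20 clusters or classes, the 2 genes closest to each transporter among 12581 genes were as follows, as a description. *Slc3a1* was closest to *Fbp1* (r = 0.985), the fructose bisphosphatase of gluconeogenesis that also served as a marker, and to *Slc22a2* (0.982), an organic cation carrier. *Slc6a18* was closest to *Slc22a19* (0.986) and *Hykk* (0.985), *Slc7a13* to *Slc5a8* (0.978), a monocarboxylate carrier, and *Sucnr1* (0.976), the succinate receptor. *Slc7a12* was closest to *Mep1b* (0.954), a brush border protease, and *Slc22a29* (0.943), *Slc7a9* to *Pter* (0.969) and *Gm10732* (0.965), and *Slc6a20b* to *Rdh16* (0.963) and *Mettl7b* (0.959). Lower values were found for the other genes, namely *Cd164* (0.921) and *Mvp* (0.915) for *Slc3a2*, *Slc22a18* (0.906) and *Dcxr* (0.886) for *Slc7a8*, *Gm15655* (0.882) and *Maf* (0.835) for *Slc7a7*, and *Bphl* (0.909) and *Aldh4a1* (0.905) for *Slc6a19*. Among the 10 genes themselves, *Slc3a1* with *Slc7a13* (0.973) and *Slc6a18* with *Slc7a13* (0.970) were the most alike, and *Slc3a2* with *Slc7a12* (-0.02) the least.

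The study asked how loss of *Trim28* alters the developing nephron. *Trim28* itself, counted at its 3′ end and therefore no check of the deletion, was at 24.4 and 24.8 CPM in PT-like cells of the ko mice and at 58.5 and 78.8 CPM in those of the wt mice. Its log2 change was -1.51 (SE 0.16, edgeR adjusted p = 0.0152).

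Within PT-like cells, no change of a transporter gene passed the test. By edgeR's quasi-likelihood test over 12461 genes, 0 of 10 genes had an adjusted p under 0.05, against 0.506% of all genes tested, and DESeq2 also called 0 of 10, against 0.711% of the genes it tested. At an unadjusted p under 0.05, edgeR gave 2 of 10, against 9.66% of all genes. The median log2 change, ko over wt, was 0.06 over the 10 genes and -0.01 over all genes tested. On simulated PT-like sums of 12461 genes the fit recovered 72% of 2-fold and 96% of 4-fold changes, with 100 genes of each size. The simulation gave every gene the same dispersion and held no outlying mouse, so these shares may overstate the recovery on the real counts.

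For 4 of the luminal proteins, *Slc3a1*, *Slc7a9*, *Slc6a18* and *Slc6a20b*, the differences between genotypes in PT-like cells were close to or below their errors. *Slc3a1* was at 157 and 135 CPM in ko and 143 and 122 CPM in wt mice (log2 change 0.11, SE 0.14, edgeR adjusted p = 0.870). *Slc7a9* was at 51.2 and 47.8 CPM in ko and 56.1 and 41.3 CPM in wt mice, a log2 change of 0.00 with an SE of 0.18. *Slc6a18* was at 204 and 215 CPM in ko and 200 and 171 CPM in wt mice, a log2 change of 0.15 (SE 0.13). The genotypes did not overlap, as for 4931 of all 12461 genes tested in these cells. *Slc6a20b* was at 51.6 and 40.5 CPM in ko and 40.2 and 40.1 CPM in wt mice, a log2 change of 0.17 with an SE of 0.16.

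*Slc7a12* (122 and 90.9 CPM in ko, 56.3 and 112 CPM in wt) and *Slc7a13* (103 and 79.1 CPM in ko, 62.5 and 131 CPM in wt) overlapped between the genotypes in PT-like cells. For *Slc7a13* the wt mice lay on both sides of the ko mice, and for *Slc7a12* mouse 3 lay below both ko mice and mouse 4 between them, so the sign of the change rests on which wt mouse is used. Straight cells were 125 of 312 and 173 of 347 PT-like cells in ko and 18 of 150 and 75 of 186 in wt mice, and *Slc7a12* of mouse 3 was lowest in the PT-like sum although it was highest in straight PT-like cells. Without mouse 3, *Slc7a13* was lower in the ko mice by a log2 change of -0.53 (edgeR adjusted p = 0.00144) and was the only 1 of 10 genes called, against 4.29% of all genes, and *Slc7a12* was at -0.07. Without mouse 4, *Slc7a13* was higher in the ko mice by 0.49 (edgeR adjusted p = 0.00866) and *Slc7a12* by 0.86. That fit called 4 of 10 genes, with *Slc3a2* and *Slc7a8* the others, against 13.7% of all genes. In fits that leave out a wt mouse, the lone wt mouse is assumed to vary like the ko mice.

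*Slc3a2* and *Slc7a8*, the 4F2hc heavy chain and a light chain that pairs with it, were the pair with an unadjusted p under 0.05, and both were lower in the ko mice. *Slc3a2* was at 129 and 128 CPM in ko and 244 and 148 CPM in wt mice (log2 change -0.64, SE 0.23, edgeR adjusted p = 0.403). Without the filter on low counts it was called (log2 change -0.62, edgeR adjusted p = 0.00107), as 1 of 10 genes against 2.98% of all genes. *Slc7a8* was at 53.0 and 48.7 CPM in ko and 79.4 and 63.5 CPM in wt mice (log2 change -0.52, SE 0.16, edgeR adjusted p = 0.310). In both cases the groups did not overlap, as for 6 of 10 transporter genes and 4931 of all 12461 genes tested, and mouse 3 was highest. Without mouse 3 the changes were -0.21 and -0.32 on the log2 scale, and neither was called (edgeR adjusted p = 0.440 and 0.159), while without mouse 4 they were -0.98 and -0.69. *Slc7a7* was at 28.5 and 26.5 CPM in ko and 31.1 and 31.4 CPM in wt mice, a change of -0.21 (SE 0.14). *Slc6a19* was at 6.47 and 3.74 CPM in ko and 2.69 and 3.17 CPM in wt mice, with the widest error (log2 change 0.75, SE 0.39, edgeR adjusted p = 0.612). Its change ranged from 0.318 to 1.11 without 1 mouse.

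In convoluted PT-like cells alone, edgeR called 0 of 10 genes (0.529% of all genes), with 4 at an unadjusted p under 0.05 (10.8% of all genes), and DESeq2 called 0. In 7 of 10 genes the genotypes did not overlap, as in 40.7% of all genes tested. A log2 change above 0 was found for 7 of 10 genes and their median log2 change was 0.28, against -0.003 over all genes, whereas in straight PT-like cells 2 of 9 were above 0 (median -0.11) and in early PT-like cells 1 of 9 (median -0.35). *Slc3a1* was at 198 and 181 CPM in ko and 145 and 159 CPM in wt mice (log2 change 0.32, SE 0.13, edgeR adjusted p = 0.397). *Slc6a18* had a log2 change of 0.32 (SE 0.12, edgeR adjusted p = 0.398) and *Slc6a19* of 0.97 (SE 0.38, edgeR adjusted p = 0.405). *Slc3a2* had a log2 change of -0.47 (SE 0.18, edgeR adjusted p = 0.394). Without mouse 4, edgeR called 4 of 10 genes (*Slc3a2*, *Slc7a12*, *Slc7a13* and *Slc6a20b*), against 11.7% of all genes. Without mouse 3 it called 0 of 10, against 2.2% of all genes, and *Slc3a2* was at -0.16.

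In straight PT-like cells, 9 of 10 genes passed the filter and edgeR called 0 of them (0.281% of all genes), with 3 at an unadjusted p under 0.05 (7.17% of all genes), and DESeq2 called 0. *Slc7a13* came closest, with 72.7 and 71.4 CPM in ko and 114 and 156 CPM in wt mice (log2 change -0.99, SE 0.17, edgeR adjusted p = 0.0570), and was the 1 gene called without the filter on low counts (edgeR adjusted p = 2.979e-05, against 1.19% of all genes). Without mouse 3 its change was -1.14 (edgeR adjusted p = 3.107e-05, 1 of 10 genes called against 1.65% of all genes). Without mouse 4 it was -0.70 (edgeR adjusted p = 0.0588), and 3 of 10 genes were called, against 3.77% of all genes, with *Slc3a1*, *Slc3a2* and *Slc7a12* compared with the 18 cells of mouse 3. *Slc7a12* was at 161 and 116 CPM in ko and 226 and 171 CPM in wt mice (log2 change -0.52, SE 0.20, edgeR adjusted p = 0.620).

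Whether the change differed between the segments was tested as an interaction, with the mouse as a block. Of the 10 genes 0 passed (0.0837% of all genes), with 2 at an unadjusted p under 0.05 (6.6% of all genes), and DESeq2 was not run on it. For *Slc7a13* the ko over wt change was lower in the straight than in the convoluted segment by a log2 difference of -1.11 (SE 0.22, edgeR adjusted p = 0.0649), and for *Slc7a12* by -1.10 (SE 0.31, edgeR adjusted p = 0.290). Without mouse 3, whose straight level rests on 18 cells, the difference for *Slc7a13* was -0.92 and passed (edgeR adjusted p = 4.249e-06, with 1 of 10 genes called against 1.38% of all genes), and that for *Slc7a12* was -0.49 (edgeR adjusted p = 0.116). Without mouse 4 the differences were -1.54 and -2.12, and 5 of 10 genes were called, against 4.7% of all genes. Left out one at a time, every mouse left a lower change of *Slc7a13* in the straight segment, from -1.54 to -0.92, but without either ko mouse it did not pass (edgeR adjusted p = 0.986 and 0.129).

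**Figure D3:**
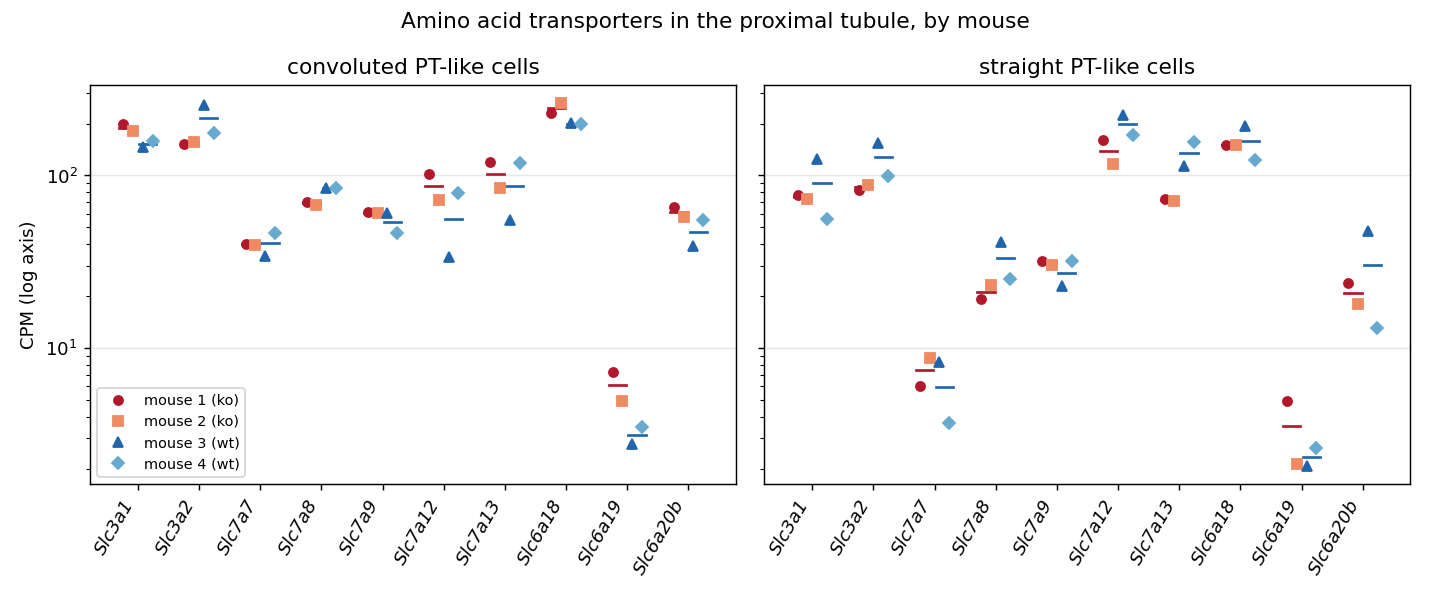
CPM (log axis) of the 10 transporter genes in convoluted and straight PT-like cells, with 1 point for each mouse and a line at the mean of each genotype (red ko, blue wt). In the straight segment both ko mice lie below both wt mice for *Slc7a13* (72.7 and 71.4 against 114 and 156 CPM), while in the convoluted segment the genotypes overlap.

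Early PT-like cells also showed no called change. Of 9 genes that passed the filter, 0 were called by edgeR (0.472% of all genes) and 2 had an unadjusted p under 0.05 (7.91% of all genes), and DESeq2 called 0. *Slc3a2* was at 96.4 and 96.2 CPM in ko and 224 and 112 CPM in wt mice (log2 change -0.84, SE 0.29, edgeR adjusted p = 0.512), and was the 1 gene called without the filter on low counts (edgeR adjusted p = 0.000263, against 1.85% of all genes). The change rests on mouse 3, without which it was -0.19 (edgeR adjusted p = 0.784) and 0 of 9 genes were called, against 2.03% of all genes. Without mouse 4 it was -1.28 and the 1 gene called, against 16.6% of all genes. *Slc7a8* was at 20.01 and 26.0 CPM in ko and 31.3 and 38.7 CPM in wt mice, a log2 change of -0.59 (SE 0.24). The other genes of the set ranged from -0.67 to 0.10 on the log2 scale.

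In the other 13 named classes with at least 10 cells per mouse, the genes were low apart from *Slc3a2*, *Slc7a7* and *Slc7a8*, and 36 tests of a gene in a class passed the filter. edgeR called 0 of them and 4 had an unadjusted p under 0.05 (all genes 8.01% in distal tubule-like, 7.47% in loop of Henle-like and 4.04% in mural-like cells, where these tests lay), with a lowest adjusted p of 0.249. The DESeq2 fit was not run in these classes. Of all genes, 1.39% were called in NPC-like, 0.757% in distal tubule-like, 0.404% in renal vesicle-like, 0.165% in podocyte-like, 0.0652% in loop of Henle-like, 0.0316% in intercalated-like and 0.0288% in immune-like cells, and 0.0% in collecting duct-like, endothelial-like, erythroid-like, mural-like, stroma-like and ureteric bud-like cells. Of the 4 tests, 3 were of *Slc3a2*. It was at 73.4 and 74.6 CPM in ko and 139 and 92.5 CPM in wt distal tubule-like cells (log2 change -0.70, SE 0.22). It was at 100 and 86.3 CPM in ko and 207 and 113 CPM in wt loop of Henle-like cells (-0.81, SE 0.29). In mural-like cells it was at 45.2 and 35.5 CPM in ko and 134 and 54.6 CPM in wt mice (-1.34, SE 0.49, from 17 to 92 cells per mouse), and mouse 3 was highest in each of these classes. Without mouse 3 the *Slc3a2* changes were -0.36, -0.28 and -0.42 in distal tubule, loop of Henle and mural-like cells and none was called (edgeR adjusted p = 0.750, 0.633 and 0.996). Without mouse 4 they were -0.91, -1.19 and -1.78, and each was called, against 5.86%, 20.7% and 1.29% of all genes. Fits without mouse 4 gave calls in other classes too, but they leave mouse 3 as the only wt mouse, so no change is read from them. *Slc7a8* in distal tubule-like cells was at 21.5 and 2.60 CPM in ko and 22.6 and 40.9 CPM in wt mice (-1.28, SE 0.55). It was called without mouse 3 (-1.75, 1.7% of all genes) and without mouse 1 (-3.54, 0.925% of all genes), but not without mouse 2 (-0.48) or mouse 4 (-0.86).

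Summed over all assigned cells of a mouse, the picture differed. Bulk samples were not analysed here, and the paper reports that the genes most lowered in its bulk data of newborn kidneys belonged mainly to the PT. These sums hold only dissociated cells that were assigned to a mouse, so they do not stand for a bulk measurement of the kidney. *Slc3a1* was at 50.9 and 42.9 CPM in ko and 18.2 and 22.6 CPM in wt mice, a log2 change of 1.15 (SE 0.16, edgeR adjusted p = 0.0729). *Slc6a18* was at 71.0 and 73.6 CPM in ko and 32.9 and 36.9 CPM in wt mice (log2 change 1.005, SE 0.12, edgeR adjusted p = 0.0608). *Slc7a9* was at 18.5 and 17.1 CPM in ko and 9.68 and 9.90 CPM in wt mice (log2 change 0.81, SE 0.14, edgeR adjusted p = 0.0869). For 9 of 10 genes, all but *Slc3a2*, both ko mice were above both wt mice, as for 29.4% of all genes tested, and the median log2 change was 0.87, against -0.01 over all genes tested. None of these changes passed edgeR's test (0 of 10, against 0.206% of all genes), with 8 at an unadjusted p under 0.05, against 15.7% of all genes. DESeq2 called 5 of 10 (*Slc3a1*, *Slc7a9*, *Slc7a12*, *Slc6a18* and *Slc6a20b*), against 4.25% of the genes it tested, and edgeR without the filter on low counts called these 5, against 3.8% of all genes. Without mouse 3, edgeR also called 5 of 10 (*Slc3a1*, *Slc7a9*, *Slc7a12*, *Slc6a18* and *Slc6a20b*), against 11.4% of all genes, and *Slc3a1* had a log2 change of 1.005 (edgeR adjusted p = 0.00480). Without mouse 4 it called 9 of 10, against 26.2% of all genes. *Slc3a2* was at 98.7 and 97.3 CPM in ko and 176 and 88.8 CPM in wt mice (log2 change -0.48, SE 0.31), and its change was 0.10 without mouse 3.

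The share of PT-like cells also differed between the mice. PT-like cells made up 23.7% (exact binomial 95% interval 21.4 to 26.1%) and 23.3% (21.2 to 25.5%) of the cells of the ko mice, and 5.46% (4.64 to 6.37%) and 10.3% (8.93 to 11.8%) of those of the wt mice, where intervals cover counting error only. The difference was 15.6 percentage points (exact permutation p = 0.333, two-sided, the smallest that 2 against 2 mice allow). The value of mouse 3 depended on the clustering and on the tag assignment. At resolution 1.2 its PT-like share was 13.3% and with k-means tag assignment 12.7%, above mouse 4 (12.2% and 11.8%) and below both ko mice. The share named early PT-like was 6.38% and 7.98% in ko and 15.0% and 8.74% in wt mice, and in mouse 3 it was 7.31% at resolution 1.2. PT-like cells held at least 28.4% of all UMIs in each ko mouse, and 7.7% and 14.9% in the wt mice. Of the UMIs of *Slc3a1*, 92.4% and 89.4% lay in PT-like cells in the ko mice and 60.5% and 80.8% in the wt mice. Of those of *Slc3a2*, 39.1% and 37.3% did so in the ko mice and 10.7% and 24.9% in the wt mice.

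With the PT-like cells left out, the genotypes did not overlap for 2 of 10 genes, against 42.7% of all genes tested. *Slc3a1* was then at 5.49 and 6.38 CPM in ko and 7.80 and 5.12 CPM in wt mice, a log2 change of -0.20 (SE 0.27), and *Slc6a18* at 14.1 and 17.6 CPM against 18.9 and 13.3 CPM. These cells held *Slc3a1*, *Slc7a9*, *Slc7a12*, *Slc7a13*, *Slc6a18* and *Slc6a20b* at 19.0% to 29.3% of their level in free RNA, where convoluted markers were at a median of 24.7%. That RNA is shared by the 4 mice, and the early PT-like cells are also among these cells and held 307 of the 605 UMIs of *Slc7a9* there and 586 of the 1972 of *Slc6a18*. No likeness of expression between the genotypes is read from these values. The median log2 change of the 10 genes was -0.15, and edgeR called 0 of 10 (0.0558% of all genes) with 0 at an unadjusted p under 0.05 (10.3% of all genes), and DESeq2 called 0.

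**Figure D4:**
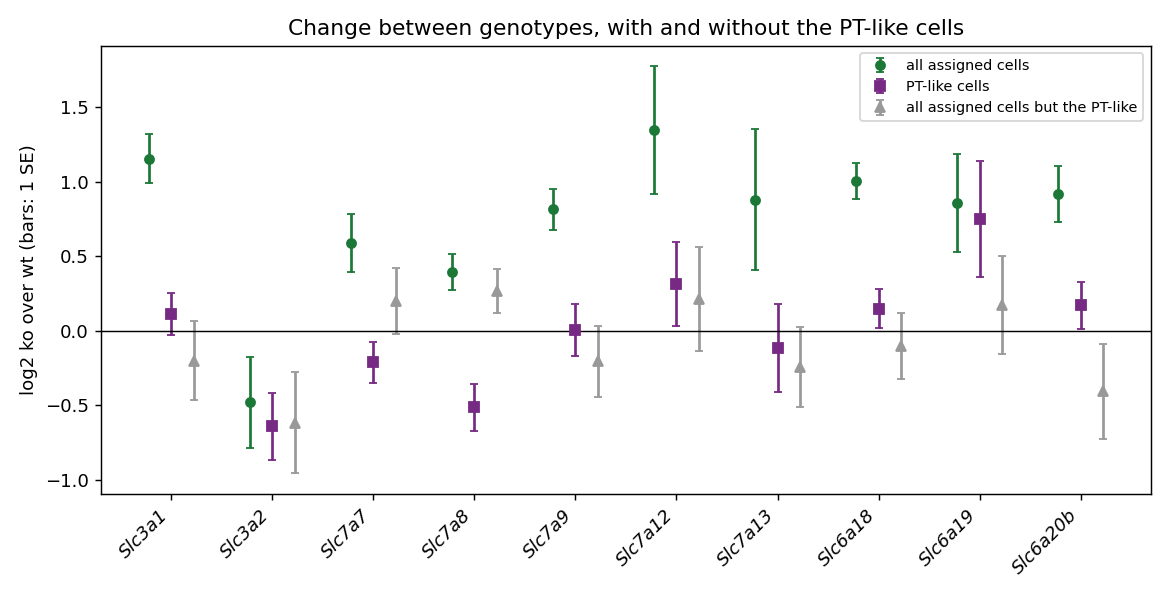
Log2 change (ko over wt, bars 1 SE from edgeR) of each transporter gene in all assigned cells, in PT-like cells and in all cells but the PT-like. In all cells 9 of 10 genes lie above 0, with 1.15 for *Slc3a1*, whereas PT-like cells put *Slc3a1* at 0.11 and the other cells, where its level is within the reach of free RNA, at -0.20.

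The other genes of amino acid uptake in PT-like cells were followed in 4 lists with 37 genes in the table. Of these, 29 passed the filter and edgeR called 0, with 8 at an unadjusted p under 0.05 (9.66% of all genes), and DESeq2 also called 0. Their median log2 change was -0.09. None of the 4 partner genes had an unadjusted p under 0.05. *Cltrn* (collectrin), a partner of the SLC6 carriers, was at 725 and 629 CPM in ko and 596 and 693 CPM in wt mice (log2 change 0.05, SE 0.13). *Pdzk1*, a scaffold of the brush border, had a log2 change of -0.04 (SE 0.13). The brush border peptidases *Anpep* and *Ggt1* had log2 changes of 0.06 (SE 0.14) and 0.14 (SE 0.12).

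Among other luminal carriers, *Slc1a1*, the glutamate carrier of the brush border, was at 22.8 and 20.8 CPM in ko and 37.2 and 31.9 CPM in wt mice (log2 change -0.69, SE 0.16, edgeR adjusted p = 0.160). *Slc36a1*, a proton-coupled carrier, was at 7.50 and 7.02 CPM in ko and 13.5 and 14.4 CPM in wt mice (-0.97, SE 0.20, edgeR adjusted p = 0.129). *Slc6a20a*, the paralog of *Slc6a20b*, was at 2.20 and 2.26 CPM in ko and 3.43 and 2.43 CPM in wt mice. In no list did the median change leave the range from -0.39 to 0.13, against -0.01 over all genes. The lower end was the list named other luminal carriers and the upper end the partners. The membrane side of the listed carriers was not checked here. In the other named classes, 1 list gene was called, *Enpep*, a membrane aminopeptidase, which in NPC-like cells was at 61.3 and 66.0 CPM in ko and 29.9 and 17.7 CPM in wt mice (log2 change 1.32, SE 0.27, edgeR adjusted p = 0.0454), where 1 of the 26 list genes tested was called, against 1.39% of all genes. Without mouse 1 or mouse 2 it was 1.36 and 1.25 and no longer called (edgeR adjusted p = 0.823 and 0.652).

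A further list gene was called outside the named classes. *Slc7a11* (xCT), the cystine and glutamate exchanger that pairs with *Slc3a2*, was at 46.5 and 50.3 CPM in ko and 1.94 and 6.02 CPM in wt mice in an unnamed cluster of 432 cells led by *Spon1*, *Fgf8*, a growth factor of early nephrons, and *Epha4*. Both ko mice were above both wt mice, with a log2 change of 3.64 (SE 0.36, edgeR adjusted p = 0.0002034, against 0.87% of all genes called in these cells). List genes were not left out of the clustering, so *Slc7a11* may have shaped this cluster, and the change was tested in the main clustering only. In PT-like cells the gene was at 1.29 and 0.68 CPM in ko and 0.73 and 0.75 CPM in wt mice and did not pass the filter. Its partner *Slc3a2* was at 54.6 and 53.8 CPM in ko and 82.7 and 61.2 CPM in wt mice in the same cluster (log2 change -0.45, SE 0.20, edgeR adjusted p = 0.514). Without 1 mouse the change of *Slc7a11* was 2.97 to 4.56 and was called each time, against 0.448% to 7.94% of all genes. *Slc3a2* was called in this cluster without mouse 4 (-0.65) and not without any other mouse. DESeq2 was not run in this cluster.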

How the data were processed

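Kidney cells of 4 embryos, pooled with cells of 4 further tags, were profiled by droplet 3′ single-cell sequencing with cell multiplexing oligonucleotides. The authors deposited 1 unfiltered matrix of raw UMI counts per gene and tag, made with Cell Ranger (6.0.0 in the submitters' processing notes), without cell annotation. No source used here names their genome build. The 21385 barcodes that reached 6891 UMIs were taken as cells, of which 19272 passed quality filters. Tags were assigned with HTODemux in Seurat 5.3.0. Of these cells 7363 carried 1 of the 4 tags that the tag list names, 4721 carried several tags and were left out as doublets, 2680 carried none, and cells of 4 further tags were not used here. Scrublet (scanpy 1.11.5) marked 7.65% of the assigned cells, which were kept in the reported values. SCTransform, 30 principal components and Louvain clustering at resolution 0.8 gave clusters, named from marker lists. Counts were summed per mouse and class and tested with edgeR 4.0.16 (quasi-likelihood, filterByExpr, TMM, Benjamini-Hochberg adjustment, threshold 0.05) in classes with at least 10 cells per mouse. SEs were derived as the log2 change over the root of F. DESeq2 1.42.0 was an alternative, and the others are listed with their effect in the closing section. Total counts per mouse were 25761268, 31087277, 52777501 and 35851952 UMIs. Replicates are separate embryos of 1 pool. The genes and lists were chosen with earlier results of these data known. Named are the 10 genes, list genes that passed a test or on which a result turns, *Trim28* and the 2 genes most like each transporter. Bulk samples of the series were not analysed here. The values of 1 gene of the lists are not reported here.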

Additional observations from a re-analysis of the deposited data

How the results depend on the processing

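Counts of called transporter genes depended mainly on the wt mice. The share of all genes called moved in the same way in the comparisons below. It was highest without mouse 4, and lower without either ko mouse than without either wt mouse. Each count is therefore to be read against that share, which is given above for the fits of these comparisons without a wt mouse. Leaving out each mouse in turn gave 0 to 4 of 10 in PT-like, 0 to 4 in convoluted PT-like, 0 to 3 in straight PT-like, 0 to 1 in early PT-like and 0 to 9 in all assigned cells, 0 to 5 for the difference between segments and 0 to 5 list genes in PT-like cells, with the highest count without mouse 4 in each case. Without a filter on low counts the call numbers were 1 in PT-like (*Slc3a2*), 1 in straight PT-like (*Slc7a13*), 1 in early PT-like (*Slc3a2*) and 5 in all cells, with 3 list genes in PT-like cells. In straight PT-like cells 1 gene (*Slc7a13*) was called with upper quartile factors, without Scrublet doublets and at resolution 1.2 (0.375%, 0.687% and 0.426% of all genes). There 0 transporter genes were called with library size only and in thinned cells (0.328% and 0.364% of all genes). The same held with the 10 genes kept for clustering and with k-means tag assignment (0.344% and 0.274%). In all cells 5 were called by DESeq2, 2 in thinned cells (0.62% of all genes), 1 with library size only (0.327%) and 1 with k-means tag assignment (0.501%). The cause was not tested.

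Of 158 alternatives for single genes in PT-like cells 142 kept direction and side of the threshold, 1 newly passed it and 15 changed sign, leave-one-out fits aside. *Slc3a1* was at -0.06 in thinned cells and -0.10 in straight cells only, and without 1 mouse it ranged from -0.022 to 0.25. *Slc7a7* was at 0.14 at resolution 1.2, 0.15 with k-means and 0.65 in straight cells. *Slc7a9* was at -0.052 without Scrublet doublets, -0.071 with the highest tag at 80% or more, and -0.23 to 0.26 without 1 mouse. *Slc7a12* was at -0.52 in straight cells and -0.071 to 0.86 without 1 mouse. *Slc7a13* was at 0.10 and 0.21 at resolutions 0.4 and 1.2, 0.16 with k-means, 0.031 with a minimum of 2500 UMIs, 0.25 in convoluted cells and -0.53 to 0.49 without 1 mouse. *Slc6a18* was at -0.035 and *Slc6a20b* at -0.11 in straight cells, and the latter at -0.009 to 0.34 without 1 mouse. In all cells, leaving out PT-like cells gave -0.20 for *Slc3a1* and *Slc7a9*, -0.24 for *Slc7a13*, -0.10 for *Slc6a18* and -0.41 for *Slc6a20b*, and *Slc3a2* ranged from -0.89 to 0.10 without 1 mouse.

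The difference in PT-like share was 11.4 to 16.3 percentage points in the clustering, tag and cell calling alternatives. Resolution 0.4 gave no straight class, and under log normalization, tags scaled per tag, the highest tag rule and the lower minimum of UMIs a mouse had under 10 straight cells, so these tests were not run. No paired analysis was possible because the 4 tags are numbered 1 to 4 across the genotypes, so that ko and wt mice share no number.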
